A study of Homo sapiens with 7 samples.

Results

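The nuclear genes of the respiratory chain and of ATP synthase were described in 7 lines of K562, an established cell line from chronic myeloid leukemia with erythroid features that carries the BCR::ABL1 fusion. The members were the genes of the deposited differential expression tables whose symbols begin with NDUF, COX4 to COX8, UQCR or ATP5, or are SDHA, SDHB, SDHC or SDHD. By this rule 86 of the 10452 genes in these tables were members. The drug naive line and the line kept in DMSO vehicle were the 2 controls. The 10, 15 and 25 nM DasR lines, named for the dose of dasatinib (an inhibitor of BCR::ABL1 and other tyrosine kinases) to which they had been escalated, were the early stage intermediates, and the 50 and 200 nM DasR lines were the late stage intermediates. All 7 lines descend from K562, each was sequenced as 1 library, and the stages had been set from the clustering of these libraries. The DasR lines were sampled at successive steps of the same dose escalation and are not independent derivations. Thus the lines of a stage served as its replicates although they differ in dose. P-values measure the spread between these lines and not that between separate derivations. The libraries held between 20059656 and 27844799 counts.

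Complex I takes electrons from NADH and complex II takes them from succinate, and both pass them to ubiquinone. Complex III moves them on to cytochrome c, and complex IV hands them to oxygen. Complexes I, III and IV pump protons across the inner mitochondrial membrane as they do so, and complex V, the ATP synthase, uses the return of the protons to make ATP. Most subunits are encoded in the nucleus and a few in mitochondrial DNA, and assembly factors join them without staying in the finished complex. In erythroid cells the mitochondria also carry out steps of heme synthesis.

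Of the 86 members, 45 belonged to complex I by name, with 7 core subunits that carry the redox centers, 31 accessory subunits and 7 NDUFAF assembly factors. Complex II had 4 members, complex III 9, complex IV 11 and complex V 17. In all, 76 were structural subunits. The other 10 were the NDUFAF factors, COX7A2L, which joins complexes III and IV into supercomplexes, ATP5S and ATP5SL. Among the 76 was UQCRHL, a retrocopy of UQCRH whose reads are hard to separate from those of its parent. NDUFA4 was counted in complex I by its symbol, but it is now regarded as a subunit of complex IV and RefSeq names it COXFA4. CPM are counts relative to the size of the library, and the values printed here are also scaled by the TMM factors of edgeR. All 86 members passed the limit of 10 CPM before this scaling in at least 2 libraries, since the deposited tables hold only such genes. In 84 of them every library reached it, whereas NDUFAF5 and ATP5S were below it in both controls and entered the tables through the DasR lines alone.

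Per kilobase of gene length, the members ranged from 4.58 CPM per kb for ATP5S to 662.9 for ATP5B (mean over the 7 lines), the catalytic beta subunit of ATP synthase. The most abundant member of complex III on this scale was UQCRH, the hinge protein beside cytochrome c1, at 436.6 CPM per kb, and that of complex IV was COX7C at 373.3 CPM per kb. Complex I reached 219.4 CPM per kb for NDUFS5, an accessory subunit on the intermembrane side. NDUFB9 was next to it at 217.1 CPM per kb, and these 2 neighbours did not differ beyond the spread over lines. In the controls NDUFB9 was above NDUFS5 (199 against 147 CPM per kb), and in late stage lines NDUFS5 was above NDUFB9 (286 against 243). SDHB, the iron-sulfur subunit, led complex II with 104.5 CPM per kb, close to SDHD at 99.01 CPM per kb. Assembly factors were among the less abundant members, with NDUFAF5 at 5.62 CPM per kb.

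**Figure D1:**
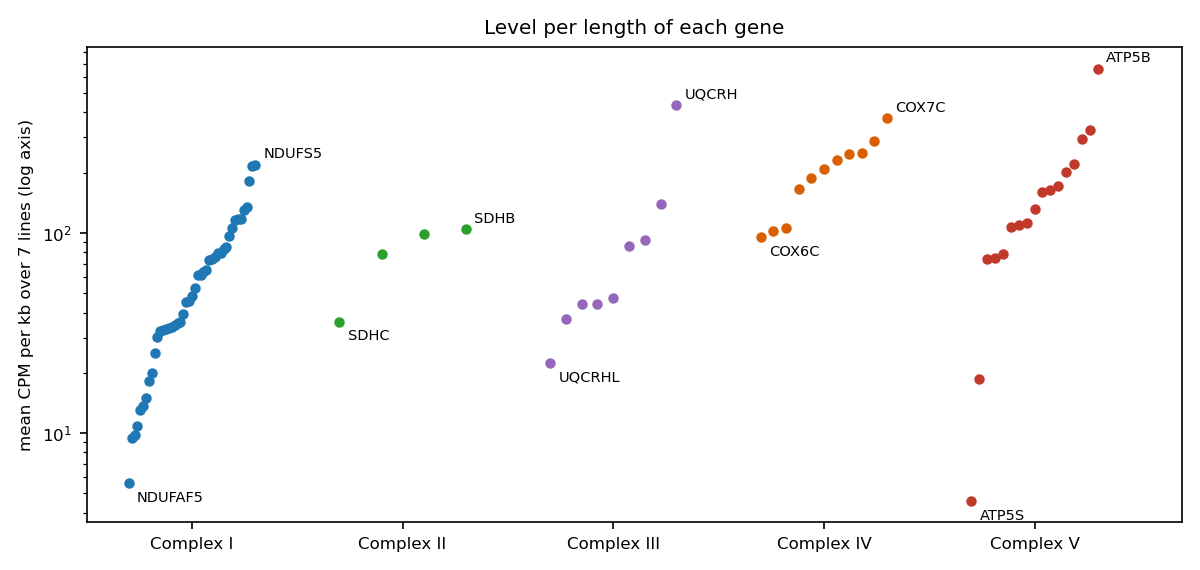
Mean CPM per kb over the 7 lines (log axis) of each of the 86 genes, 1 point per gene, ordered by level within complexes I to V, with the highest and lowest gene of each complex named. ATP5B stands highest at 662.9 CPM per kb and ATP5S lowest at 4.58.

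To ask how these genes differ in drug resistant lines, each stage was compared with the controls. In early stage intermediates 5 members were higher and 2 lower than in controls at an FDR of 0.005, where FDR is the p-value of edgeR's quasi-likelihood test after Benjamini-Hochberg adjustment over all genes. The background was 7.92% of all genes called higher and 10.1% called lower, so that 18% were called in either direction. The 5 that rose were NDUFAF5, NDUFB2, NDUFAF4, UQCR11 and NDUFS5, and the 2 that fell were COX7A2L and UQCRC2. In late stage intermediates 4 members rose, NDUFAF5, NDUFS5, UQCR11 and NDUFA4, and COX7A2L fell, against a background of 3.42% higher and 4.56% lower (7.98% in either direction). At an FDR of 0.05 the early stage had 20 members higher and 8 lower (backgrounds 22.6% and 24%, or 46.5% in either direction), and the late stage 26 higher and 1 lower (backgrounds 16.2% and 17.6%, or 33.9%). Both comparisons used the same 2 control libraries.

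The median log2 fold change of the 86 members was 0.10 in early stage and 0.25 in late stage intermediates, where the median of all genes was 0 in both. No test was made of a list. Of the 86, 59 had a positive value in early stage and 70 in late stage intermediates. Line by line, the median of the members against the mean of the controls was -0.06 for drug naive and 0.06 for DMSO cells on the log2 scale. The medians of the 10, 15 and 25 nM lines were 0.06, 0.19 and 0.09, and those of the 50 and 200 nM lines were 0.14 and 0.35. The 10 and 25 nM lines lay at or close to the DMSO line, and the 200 nM line lay farthest above both controls. In early stage intermediates the medians were 0.14 for complex I, 0.07 for complex II, 0.12 for complex III, 0.14 for complex V and 0.05 for complex IV, and the last turned to -0.04 with a gene length trend removed and to -0.02 without the drug naive line. Early stage medians also moved when 1 control was left out, with 0.06 without the drug naive and 0.24 without the DMSO line for complex I, 0.19 and 0.08 for complex III, and up to 0.24 without the DMSO line for complex V. In late stage intermediates they were 0.27, 0.15, 0.38, 0.24 and 0.18 for complexes I to V. Without the 200 nM line they were 0.16, 0.12, 0.32, 0.14 and 0.07, and without the 50 nM line 0.35, 0.24, 0.45, 0.34 and 0.29. In bulk RNA, fewer cells with a high level and less RNA per cell cannot be told apart.

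**Figure D2:**
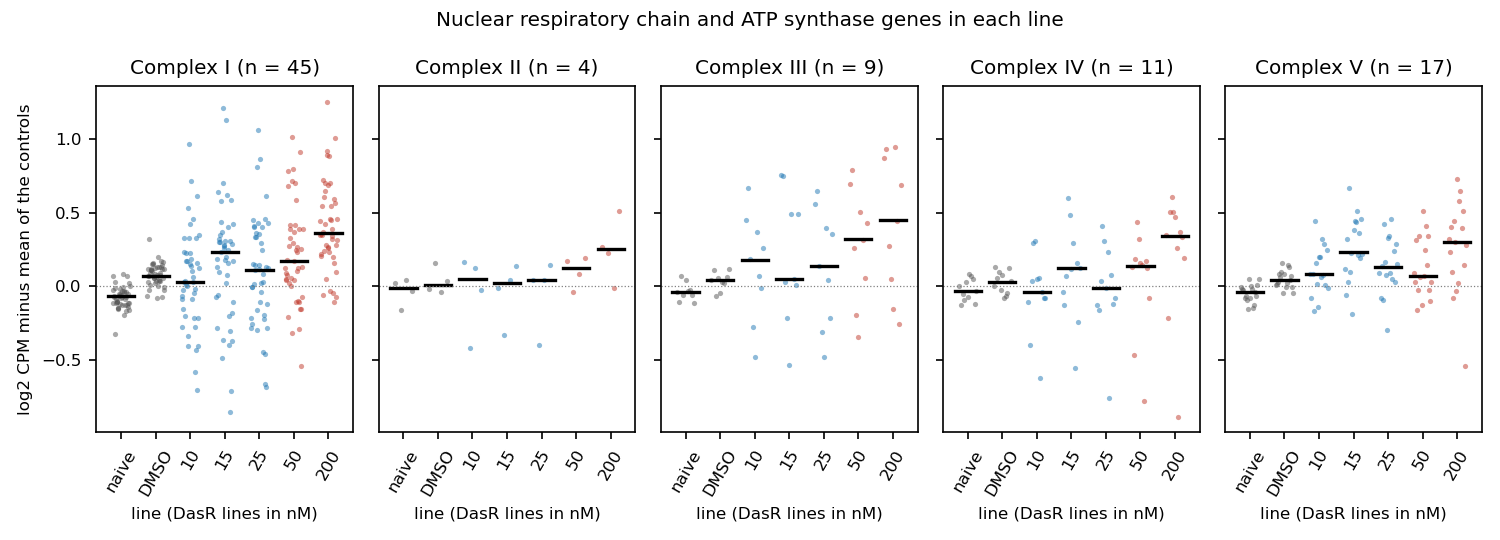
Log2 CPM minus the mean of the 2 controls for every member (points) in each of the 7 lines, by complex, with the median of the complex as a black bar. The median of the 200 nM line is the highest of the 7 in each complex.

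Fewer members were called when a library of the groups compared was left out, while fold changes stayed of similar size. Without the drug naive or the DMSO line, the early stage log2 fold change was -0.57 and -0.71 for COX7A2L and 1.03 and 1.14 for NDUFAF5. With 1 control left, its spread is taken from the other groups. Without the drug naive line or without the DMSO line none of the 7 early stage calls passed the FDR of 0.005 in edgeR's quasi-likelihood test, although 22 and 32 members had an unadjusted p under 0.05, and none passed without the 25 nM line (27 at that p). Of all genes, 42.9%, 47.9% and 46.6% had such a p in these fits. Leaving out the 10 nM or the 15 nM line gave 1 call each, where 10.6% and 8.51% of all genes were called. None of the 5 late stage calls passed without the drug naive, DMSO or 200 nM line, with 28, 35 and 29 members at an unadjusted p under 0.05 (34.6%, 40.4% and 40.3% of all genes). In the late stage 1 member was called without the 25 nM and 2 members without the 50 nM line, where 2.62% and 2.52% of all genes were. The calls over all 10452 genes fell as well, in early stage intermediates from 1881 to 208 without the drug naive, 529 without the DMSO and 535 without the 25 nM line, and in late stage intermediates from 834 to 33, 110 and 281 without the drug naive, DMSO and 200 nM lines. DESeq2 called 14 members in early (16.3%, where it called 33.9% of all genes) and 21 in late stage intermediates (24.4%, where it called 23.9% of all genes). With only the control and late stage libraries in the fit, none of the 5 late stage calls passed the FDR of 0.005 in edgeR's test. Of all genes, 2.46% were called there. All log2 fold changes of the members called kept their sign under these changes.

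The core subunits and the accessory subunits of complex I had medians of opposite sign in early stage intermediates. The core median log2 fold change was -0.28 in early stage intermediates, against 0.16 for the 31 accessory subunits, and -0.03 against 0.29 in late stage intermediates. The late stage median of the core subunits had no steady sign, with -0.11 in the 50 nM and 0.10 in the 200 nM line against the mean of the controls. NDUFS7, which lies near the quinone site, measured 74.3 and 80.3 CPM in the drug naive and DMSO lines, 47.2, 59.5 and 47.9 CPM at 10, 15 and 25 nM, and 53.1 and 73.2 CPM at 50 and 200 nM. All DasR lines lay below both controls, the 200 nM line only just. The log2 fold change was -0.58 ± 0.16 (SE) in early (FDR 0.0217) and -0.29 ± 0.18 in late stage intermediates (FDR 0.241). NDUFS1, which holds iron-sulfur clusters, was also lower in early stage intermediates at an FDR of 0.05 (-0.28 ± 0.08, FDR 0.0212). Its late stage log2 fold change was -0.08 ± 0.08 (FDR 0.485). NDUFS1 was also below both controls in all 5 DasR lines. The 50 and 200 nM lines, at 125 and 130 CPM, lay close to the drug naive line at 131 CPM. NDUFS3 went the other way, with log2 fold changes of 0.36 ± 0.12 (FDR 0.0392) and 0.49 ± 0.13 (FDR 0.0244) in the early and late stage. NDUFS8, NDUFV1 and NDUFV2 did not pass an FDR of 0.05 in either stage. Their early stage log2 fold changes were -0.30 ± 0.13 for NDUFS8, -0.16 ± 0.13 for NDUFV1, which binds NADH, and 0.14 ± 0.09 for NDUFV2.

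Among the 31 accessory subunits of complex I, 7 were higher and 2 lower in early stage intermediates at an FDR of 0.05, against 22.6% and 24% of all genes. The share higher was that of all genes. In late stage intermediates 10 were higher and none lower, against 16.2% and 17.6% of all genes, and 14 were higher and none lower at an unadjusted p under 0.05 in edgeR's test, where 2326 of all 10452 genes were higher and 2472 lower. NDUFS5 measured 77.5 CPM in the drug naive and 90.7 CPM in the DMSO line, 128, 126 and 128 CPM at 10, 15 and 25 nM, and 158 and 169 CPM at 50 and 200 nM. The 3 groups did not overlap, and the early stage lines lay within 2 CPM of each other. Its log2 fold change was 0.60 ± 0.09 in early (FDR 0.00268) and 0.96 ± 0.10 in late stage intermediates (FDR 0.00131), the smallest FDR of any member there. NDUFB2, at the end of the membrane arm, rose from 22.6 and 27.0 CPM in the controls to 40.5, 54.2 and 45.1 CPM at 10, 15 and 25 nM, with 40.2 and 45.7 CPM at 50 and 200 nM. The DasR lines all lay above both controls (early stage log2 fold change 0.91 ± 0.16, FDR 0.00366, and late stage 0.79 ± 0.17, FDR 0.012). Exons of NDUFB2 overlap exons of BRAF and of NDUFB2-AS1 on the other strand, and whether strand was used in the counting is not given in the sources used here. NDUFA4 was at 82.0 and 83.1 CPM in the controls, 97.0, 103 and 109 CPM at 10, 15 and 25 nM, and 142 and 136 CPM at 50 and 200 nM. This step in each stage gave log2 fold changes of 0.31 ± 0.08 (FDR 0.0185) and 0.75 ± 0.09 (FDR 0.00187). NDUFS4, which belongs to the NADH binding module, and NDUFA10 were the 2 accessory subunits lower in early stage intermediates, with log2 fold changes of -0.53 ± 0.15 (FDR 0.0212) and -0.28 ± 0.10 (FDR 0.0476). In late stage intermediates NDUFS4 was back at the control level (0.01 ± 0.16, FDR 0.979).

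The 7 NDUFAF factors act during the assembly of complex I. NDUFAF5, which hydroxylates NDUFS7 at an early step, measured 7.15 and 7.69 CPM in the controls, 14.5, 17.2 and 15.5 CPM at 10, 15 and 25 nM, and 15.0 and 17.7 CPM at 50 and 200 nM. All 5 DasR lines were far above both controls, and the log2 fold changes were 1.08 ± 0.16 (FDR 0.00212) and 1.14 ± 0.17 (FDR 0.00374), the highest of all members in either stage. Because NDUFAF5 entered the tables through the DasR lines alone, it was also tested without the filter on low counts, over 22776 genes, where the log2 fold changes were 1.09 (FDR 0.00133) and 1.19 (FDR 0.00227). NDUFAF4 measured 21.4 and 23.1 CPM in drug naive and DMSO cells, 32.2, 36.2 and 39.0 CPM in the 10, 15 and 25 nM lines, and 36.5 and 41.2 CPM in the 50 and 200 nM lines. All 5 DasR lines lay above both controls, and the 2 stages overlapped. Its early stage change of 0.69 ± 0.12 passed (FDR 0.00434), and its late stage change of 0.80 ± 0.13 was just outside the limit (FDR 0.00525). NDUFAF6 was highest in the late stage, with 11.6 and 13.7 CPM in control, 15.8, 15.2 and 17.0 CPM in early stage and 21.9 and 23.8 CPM in late stage lines (late stage log2 fold change 0.85 ± 0.15, FDR 0.00575). NDUFAF1, NDUFAF2, NDUFAF3 and NDUFAF7 did not pass an FDR of 0.05 in either stage, with late stage values between -0.12 and 0.28.

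**Figure D3:**
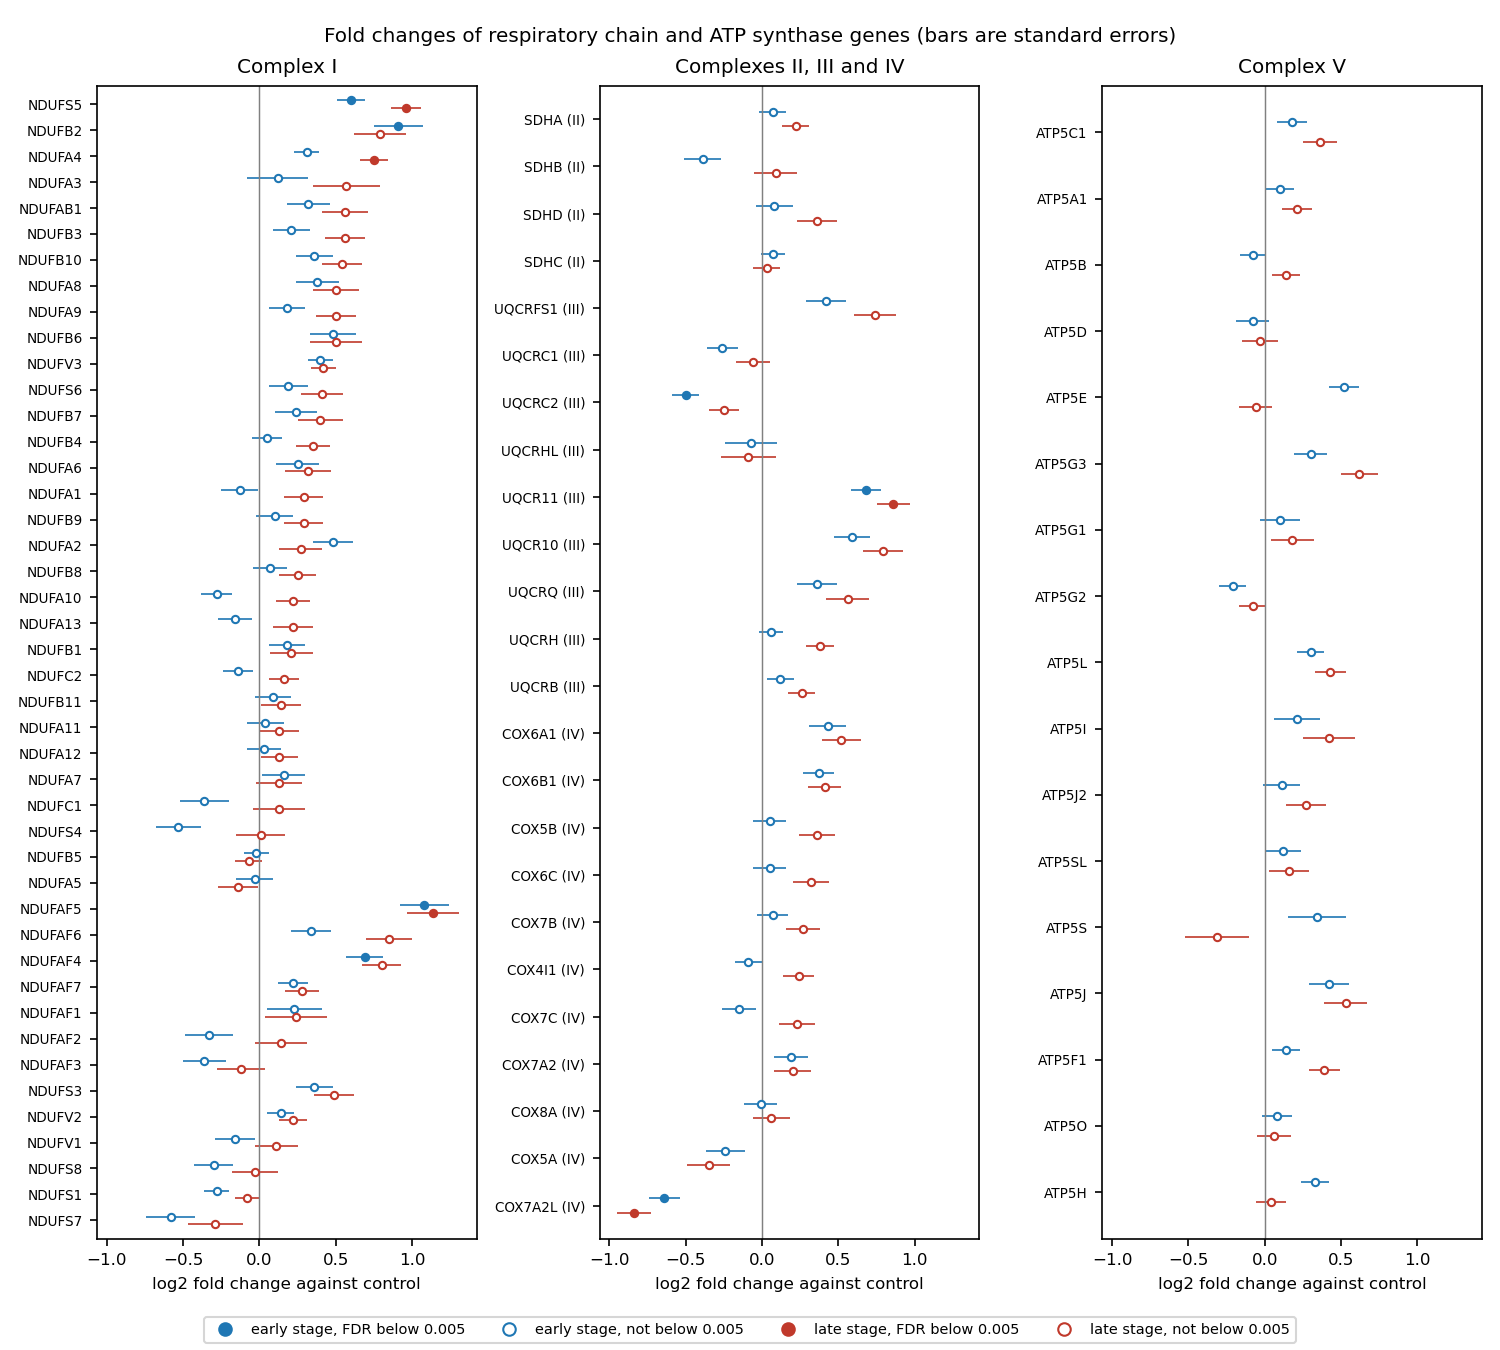
Log2 fold change against control (x axis) of each gene shown, by complex, in early stage (blue) and late stage (red) intermediates, with standard errors as bars and filled points where the FDR was below 0.005. Filled points to the left belong to COX7A2L in both stages and UQCRC2 in the early stage, and late stage points lie mostly to the right of early stage points.

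Complex II had no member past an FDR of 0.005 in edgeR's test, and 1 member, SDHB, past 0.05 in early stage intermediates, where 46.5% of all genes were. SDHB measured 117 and 146 CPM in the controls, 97.5, 104 and 98.9 CPM at 10, 15 and 25 nM, and 127 and 153 CPM at 50 and 200 nM. The early stage lines were below both controls and the late stage lines were not (-0.39 ± 0.12, FDR 0.0352, and 0.09 ± 0.14, FDR 0.634). SDHA, the flavoprotein that oxidizes succinate, ranged from 174 to 212 CPM with its highest value at 200 nM (log2 fold changes 0.07 ± 0.09 and 0.22 ± 0.09). Of the membrane anchors, SDHC stayed between 97.5 and 109 CPM in all lines, while SDHD was 119 and 125 CPM in the controls and 174 CPM at 200 nM. Neither passed an FDR of 0.05, with a late stage log2 fold change of 0.36 ± 0.13 for SDHD (FDR 0.0669).

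Within complex III the small subunits and the pair of core proteins differed in sign. The 5 small subunits all had positive log2 fold changes in both stages, with medians of 0.36 and 0.56. UQCR11, the smallest subunit, measured 39.1 and 45.6 CPM in the controls, 67.2, 70.9 and 66.1 CPM at 10, 15 and 25 nM, and 72.9 and 80.7 CPM at 50 and 200 nM. No DasR line overlapped the controls (0.68 ± 0.10, FDR 0.00233, and 0.86 ± 0.11, FDR 0.00228). UQCR10 and UQCRQ, which sit in the membrane part, also passed an FDR of 0.05 in both stages, with late stage log2 fold changes of 0.79 ± 0.13 (FDR 0.00525) and 0.56 ± 0.14 (FDR 0.0196). UQCRC2, a core protein, measured 290 and 273 CPM in the controls, 201, 194 and 201 CPM at 10, 15 and 25 nM, and 221 and 252 CPM at 50 and 200 nM. It was below the controls in every DasR line, most in the early stage (-0.50 ± 0.09, FDR 0.00367) and less in the late stage (-0.25 ± 0.10, FDR 0.0792). UQCRC1, the partner core protein, had log2 fold changes of -0.26 ± 0.10 (FDR 0.0637) and -0.06 ± 0.11 (FDR 0.678). The Rieske iron-sulfur protein UQCRFS1 went up with the small subunits, from 77.3 and 80.6 CPM among controls to 102, 111 and 104 CPM in early stage lines, 112 CPM at 50 nM and 152 CPM at 200 nM. All DasR lines lay above both controls. Its log2 fold changes were 0.42 ± 0.13 (FDR 0.0353) and 0.74 ± 0.14 (FDR 0.00915).

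In complex IV as grouped by symbol, only COX7A2L passed an FDR of 0.005 in edgeR's test. The background was 18% of all genes in early and 7.98% in late stage intermediates. COX7A2L is not one of the 10 subunits in this group. NDUFA4, counted in complex I by its symbol, passed in late stage intermediates (0.75 ± 0.09, FDR 0.00187). COX7A2L measured 171 and 156 CPM in the controls, 106, 111 and 96.1 CPM at 10, 15 and 25 nM, and 94.8 and 88.2 CPM at 50 and 200 nM. All DasR lines were far below the controls, and the 200 nM line, highest for most members, was lowest here. The log2 fold changes were -0.64 ± 0.10 (FDR 0.00219) and -0.84 ± 0.11 (FDR 0.00213). Of the 10 subunits, COX6A1 and COX6B1 were higher at an FDR of 0.05 in both stages, with early stage log2 fold changes of 0.43 ± 0.12 (FDR 0.0226) and 0.37 ± 0.10 (FDR 0.0201). Of all genes, 22.6% were higher at an FDR of 0.05 in early and 16.2% in late stage intermediates. COX5A was below the controls in all 5 DasR lines but with log2 fold changes of -0.24 ± 0.13 (FDR 0.174) and -0.35 ± 0.14 (FDR 0.0998). COX4I1, the largest nuclear subunit, was at 225 CPM in both controls, between 206 and 219 CPM in early stage lines and at 246 and 286 CPM in late stage lines, so that the stages lay on opposite sides of the controls.

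Isoforms that are mostly restricted to certain tissues were low. In all, 8 coding genes with names of this kind were counted but stayed under 10 CPM. COX4I2, COX6A2, COX8C, COX7B2 and COX7A1 had at most 18 counts in any library, and COX6B2, the testis form of COX6B1, had between 1.84 and 4.90 CPM. NDUFA4L2, a paralog of NDUFA4 that is induced by hypoxia, had 5.29 and 3.95 CPM in the controls, 0.794, 1.11 and 1.09 CPM at 10, 15 and 25 nM, and 1.35 and 1.14 CPM at 50 and 200 nM. All DasR lines lay below both controls, on 22 to 31 counts a library where the controls had 108 and 96. With the limit lowered to 1 CPM, over 14899 genes, its log2 fold changes were -2.21 ± 0.28 (FDR 0.00141) and -1.85 ± 0.32 (FDR 0.00677). NDUFA4 itself was higher in both stages at an FDR of 0.05.

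Complex V had no member past an FDR of 0.005 in either stage by edgeR's test, with 6 members at an unadjusted p under 0.05 in each, where 5665 of the 10452 genes had such a p in early and 4798 in late stage intermediates. At an FDR of 0.05, 4 of its 17 members were higher in early and 5 in late stage intermediates, and none was lower. The early count is near the 22.6% of all genes that were higher, and 16.2% were higher in the late stage. ATP5B was the most abundant member, with 1200 and 1228 CPM in the controls, between 1146 and 1163 CPM in the early stage lines, and 1240 and 1428 CPM at 50 and 200 nM. ATP5E, the epsilon subunit of the central stalk, was highest in the early stage lines. It measured 106 and 116 CPM in the controls and 151, 176 and 149 CPM at 10, 15 and 25 nM. At 50 and 200 nM it measured 109 and 105 CPM. The early stage lines alone were above the controls (0.52 ± 0.10, FDR 0.00666, and -0.06 ± 0.11, FDR 0.724 in late stage intermediates). The late stage lines were back at the control level. ATP5H, of the peripheral stalk, was also highest in the early stage lines. It showed 0.33 ± 0.09 (FDR 0.0239) in early and 0.04 ± 0.10 (FDR 0.766) in late stage intermediates. The 3 genes of the c ring encode the same mature protein, and ATP5G3 was the most counted of them. ATP5G3 measured 281 and 315 CPM in control, 341, 387 and 373 CPM in early stage and 424 and 494 CPM in late stage lines (late stage 0.62 ± 0.12, FDR 0.00803). ATP5G1 (0.18 ± 0.14, FDR 0.363) and ATP5G2 (-0.08 ± 0.09, FDR 0.524) did not pass an FDR of 0.05 in late stage intermediates. ATP5S, which is not a fixed subunit, was lowest of the 7 lines at 200 nM, with 6.54 CPM against 9.56 and 9.50 CPM in the controls (late stage -0.31 ± 0.21, FDR 0.299). Because ATP5S passed the limit through the early stage lines alone, it was also tested without the filter, over 22776 genes, where late against early stage gave -0.60 (FDR 0.0893). ATP5SL, now known as the complex I assembly factor DMAC2, had 0.12 ± 0.12 and 0.16 ± 0.13.

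**Figure D4:**
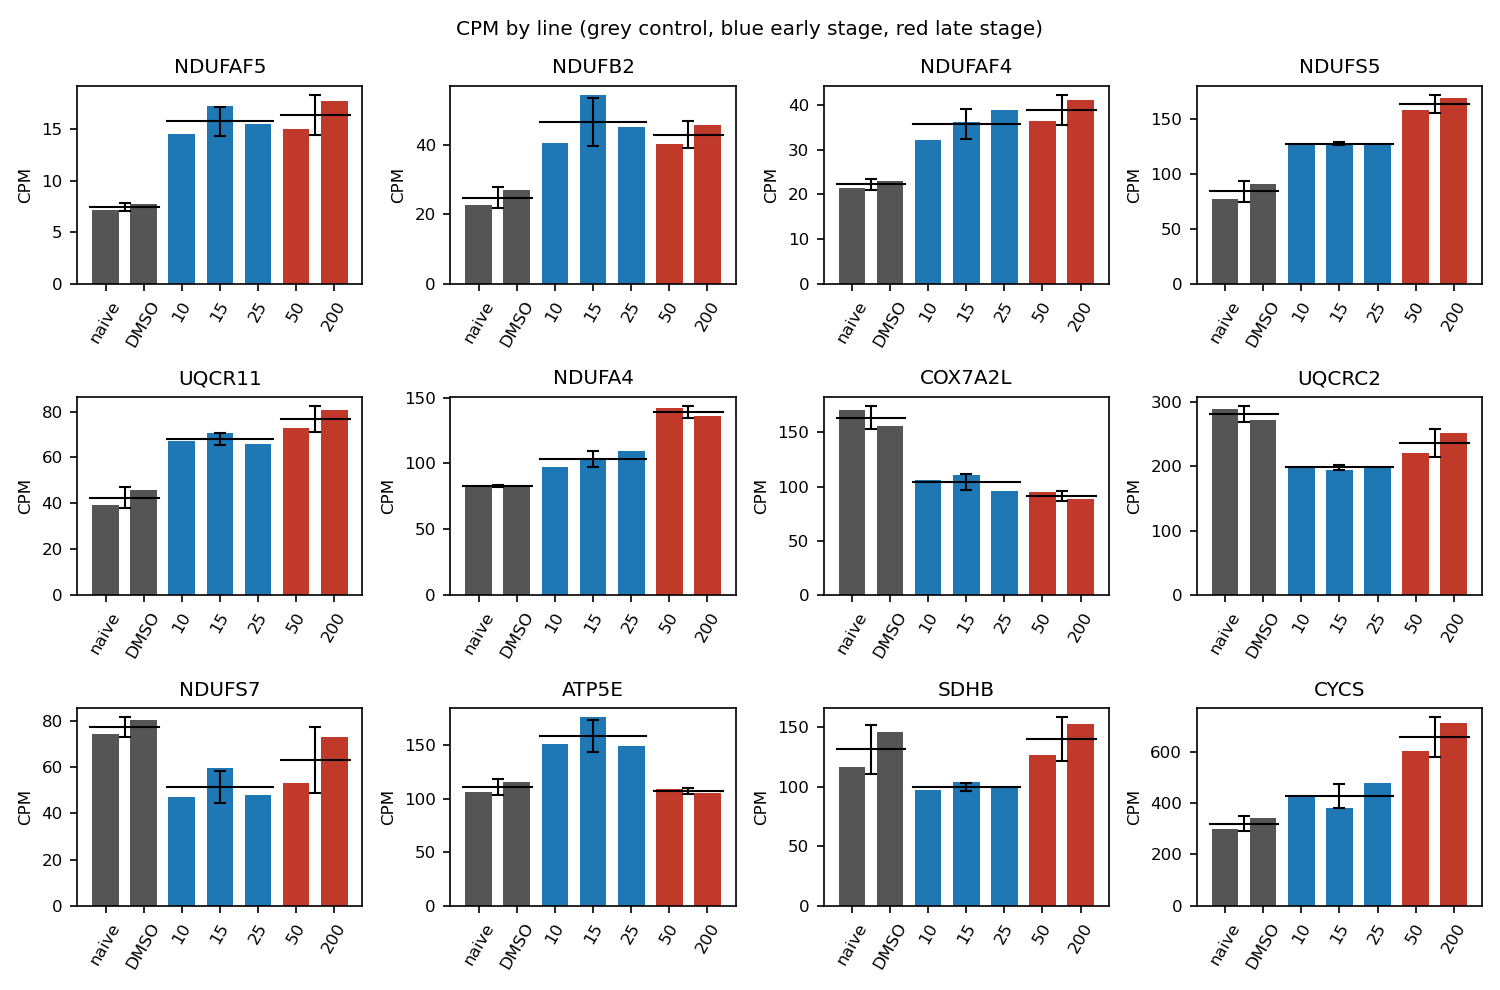
CPM (linear axis from 0) in each of the 7 lines for 11 members and for CYCS, with the mean and SD of each group in black. NDUFAF5, NDUFB2, NDUFAF4, NDUFS5 and UQCR11 lie above the controls in all DasR lines, COX7A2L and UQCRC2 below them, and ATP5E is high in the 3 early stage lines alone.

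Late and early stage intermediates were also compared directly. Because the stages were set from the clustering of these same libraries, the p-values and FDR values of this comparison are not independent of the grouping. The same holds for the comparisons of each stage with the controls. No member and no other gene passed an FDR of 0.005 in edgeR's quasi-likelihood test (background 0% in each direction). Limma-voom also called no member and DESeq2 called 5 (5.81%, where it called 10.9% of all genes), and 30 members had an unadjusted p under 0.05 in edgeR, 27 of them higher and 3 lower in late stage intermediates. Of all 10452 genes, 3450 had such a p, 1717 of them higher and 1733 lower. At an FDR of 0.05, 6 members were higher and 1 was lower, where 6.6% and 6.1% of all genes were (12.7% in either direction). Those higher were NDUFAF6 (0.52 ± 0.13, FDR 0.044), NDUFA10 (0.51 ± 0.10, FDR 0.0235), SDHB (0.49 ± 0.12, FDR 0.0455), NDUFA4 (0.43 ± 0.08, FDR 0.023), NDUFS5 (0.36 ± 0.09, FDR 0.0448) and UQCRH (0.33 ± 0.08, FDR 0.0383). ATP5E was lower (-0.57 ± 0.10, FDR 0.0211). The median over the members was 0.17, where that of all genes was -0.01, and 73 of the 86 values were positive. The median was 0.26 for the core subunits of complex I. The 3 core and Rieske subunits of complex III all had positive values, with a median of 0.25. The 200 nM line weighed heavily on this comparison. Without it the late stage was 1 library, so only effect sizes are given. The median was then 0.06, and 60 of 86 values were positive. Without the 50 nM line, which also leaves 1 late stage library, the median was 0.23 and 75 of 86 values were positive.

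The 200 nM line was high in most members of every complex. It was the highest of the 7 lines in 58 of 86 members (67.4%), which was so for 19.4% of all genes. In 76 of 86 members (88.4%) it was above the 50 nM line, compared with 49.6% of all genes, and the median ratio of the 2 lines was 1.15 in the members and 0.998 in all genes. Each complex shared this, with the 200 nM line above the 50 nM line in 41 of 45 members of complex I, 3 of 4 of complex II, 8 of 9 of complex III, 10 of 11 of complex IV and 14 of 17 of complex V. The exceptions that were lowest of all lines at 200 nM were ATP5E, ATP5S, COX7A2L and UQCRHL. As a share of all counts the members took 0.861% in the drug naive and 0.952% in the DMSO line. They took 0.913%, 0.98% and 0.934% in the early stage lines in order of dose. The 50 nM line had 0.995% and the 200 nM line 1.14%. With 1 library at 200 nM there is no repeat of this line, and no test was made of its difference from the 50 nM line.

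**Figure D5:**
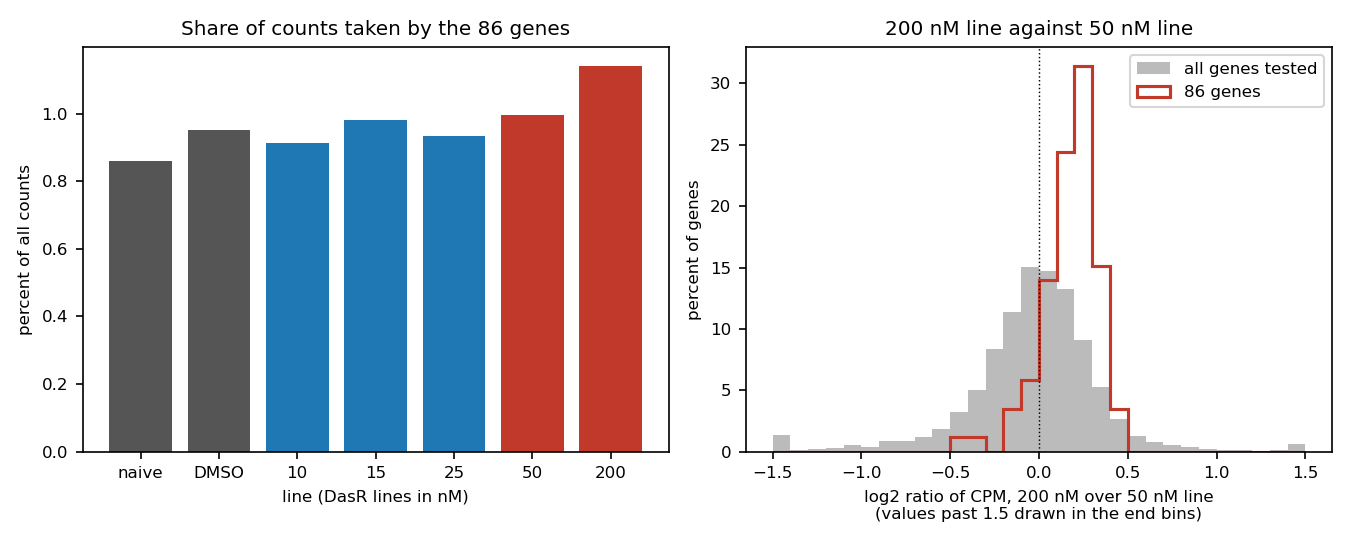
Left, percent of all counts of a library taken by the 86 genes, highest at 200 nM with 1.14%. Right, distribution of the log2 ratio of CPM in the 200 nM over the 50 nM line for all genes tested (grey) and for the 86 genes (red outline), as percent of genes in each bin, with the 86 genes centred above 0.

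How often whole groups stood apart was counted as well. Both late stage lines lay above both controls in 55 of 86 members (64%) and below them in 7 (8.14%), where all genes gave 33.4% and 35.2%. All 3 early stage lines lay above the controls in 36 members (41.9%) and below them in 18 (20.9%), where all genes gave 35.4% and 35.2%. In 33 members all 5 DasR lines were above both controls (38.4%, background 24.4%), and in 5 they were below (5.81%, background 25.1%). These 5 were COX5A, COX7A2L, NDUFS1, NDUFS7 and UQCRC2. With the 5 DasR lines taken as 1 group, 3 members were called higher and 1 lower at an FDR of 0.005 (backgrounds 3.3% and 4.78%, or 8.08% in either direction), namely NDUFAF5, NDUFAF4, UQCR11 and, lower, COX7A2L. At an FDR of 0.05 these counts were 17 and 2 (backgrounds 15.9% and 16.5%, or 32.4%), and the median log2 fold change was 0.18, or 0.12 without the 200 nM line.

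The members are short, with a median length of 983.5 bases where all genes had 3065.5, and fold changes had a slight trend with length. In the shortest 2613 of all genes the median log2 fold change was 0.04 in early and 0.06 in late stage intermediates, and for the 70 members among them it was 0.10 and 0.26.

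Promoters of a pair of members that rose and a pair that fell are shown as examples of promoters with and without motifs of factors known to bind such genes. The 250 bases before the start were taken from RefSeq (GRCh38.p14) for 71 of the 86 members and found again in GRCh37, the build the reads were aligned to, where the coordinates are given. UQCR11 (chr19:1605462-1605711 on the minus strand) and NDUFAF4 (chr6:97345768-97346017 on the minus strand) rose, and COX7A2L (chr2:42588358-42588607 on the minus strand) and UQCRC2 (chr16:21964432-21964681 on the plus strand) fell. The RefSeq start of COX7A2L lies inside the annotated gene (chr2:42560686-42652228), so that its window belongs to that start and not to the outermost one, and the windows of UQCR11 and UQCRC2 overlap the outermost annotated starts of these genes (1605472 and 21964609). Capitals mark matches on either strand to letters bound by NRF1, GCGCA and GCGC with any 1 base between them, or to CCGGAAG, letters bound by ETS factors such as GABPA.
UQCR11: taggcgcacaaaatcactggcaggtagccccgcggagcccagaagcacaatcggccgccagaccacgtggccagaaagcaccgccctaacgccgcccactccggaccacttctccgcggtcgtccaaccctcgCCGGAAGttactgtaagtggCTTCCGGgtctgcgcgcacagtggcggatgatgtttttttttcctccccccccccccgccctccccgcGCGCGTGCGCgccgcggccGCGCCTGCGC
NDUFAF4: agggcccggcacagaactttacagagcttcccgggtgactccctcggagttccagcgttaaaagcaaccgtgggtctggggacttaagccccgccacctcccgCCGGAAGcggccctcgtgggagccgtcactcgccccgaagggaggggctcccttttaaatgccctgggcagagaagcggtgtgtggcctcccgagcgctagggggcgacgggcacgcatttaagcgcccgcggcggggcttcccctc
COX7A2L: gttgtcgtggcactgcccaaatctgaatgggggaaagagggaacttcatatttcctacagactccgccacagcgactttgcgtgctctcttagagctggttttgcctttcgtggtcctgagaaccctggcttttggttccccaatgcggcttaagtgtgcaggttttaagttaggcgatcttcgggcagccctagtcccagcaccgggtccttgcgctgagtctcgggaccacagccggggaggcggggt
UQCRC2: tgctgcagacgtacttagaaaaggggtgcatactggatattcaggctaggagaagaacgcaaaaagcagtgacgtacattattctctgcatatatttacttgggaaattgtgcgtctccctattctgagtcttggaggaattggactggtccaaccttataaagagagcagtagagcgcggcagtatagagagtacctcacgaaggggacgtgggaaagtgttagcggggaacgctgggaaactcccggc
The NRF1 letters were in 13 of the 71 promoters of members (18.3%) and in 11.7% of the promoters of all 8339 genes with an entry, and the ETS letters in 17 of 71 (23.9%) and 18.3%. UQCR11 held 2 matches to each, NDUFAF4 held 1 ETS match, and COX7A2L and UQCRC2 held neither. NDUFAF5, NDUFB2 and NDUFA4, which rose, also held neither. The letters AAGATGGC of YY1 were in 1.41% of members and 2% of all, CCAAT in 29.6% and 36%, and the GC box GGGCGG in 50.7% and 68.8%. A match is a description of letters in this window and not a binding site.

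Other genes of the chain, outside the naming rule, were taken from lists. Of 15 further components, 13 were tested. In early stage intermediates 2 of these 13 were higher and 1 lower at an FDR of 0.005, and in late stage intermediates 1 was higher, where 18% and 7.98% of all genes were called in either direction. CYCS, the electron carrier cytochrome c, measured 299 and 341 CPM in the controls, 427, 382 and 477 CPM at 10, 15 and 25 nM, and 601 and 711 CPM at 50 and 200 nM. The groups did not overlap, and the late stage log2 fold change was 1.03 ± 0.14 (FDR 0.00279). CYC1, the cytochrome c1 of complex III, was 177 CPM at 200 nM and between 82.8 and 125 CPM in the other lines (0.28 ± 0.22, FDR 0.351). In early stage intermediates DHODH, which feeds electrons from pyrimidine synthesis to ubiquinone, rose by 0.84 ± 0.12 on the log2 scale (FDR 0.00184). DMAC1, an assembly factor for the membrane arm of complex I that is also in the list of assembly factors, rose by 0.87 ± 0.14 (FDR 0.00286). ETFDH, which passes electrons from fatty acid oxidation to ubiquinone, fell, from 32.4 and 34.9 CPM in control to 19.1, 14.4 and 15.4 CPM in early stage lines (-1.04 ± 0.15, FDR 0.00222).

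Assembly factors of the complexes were taken from lists as well. Of 18 tested for complex IV, 6 were higher and 2 lower in each stage at an FDR of 0.05, where 46.5% of all genes were called in early and 33.9% in late stage intermediates. At an FDR of 0.005 COA7 rose in early stage intermediates (0.99 ± 0.12, FDR 0.00106). Of 10 tested for complex I, DMAC1 alone passed an FDR of 0.005 in early and none in late stage intermediates by edgeR's test, where 2 were higher at an FDR of 0.05. Of all genes, 7.92% were higher in early stage intermediates at an FDR of 0.005 and 16.2% in late at 0.05. Of 9 tested for complexes II and III, TTC19 fell (-0.60 ± 0.10, FDR 0.00283), and UQCC1 was higher in early (0.30 ± 0.09, FDR 0.0339) and lower in late stage intermediates (-0.34 ± 0.10, FDR 0.039). The 4 tested for complex V had FDR values of 0.0511 or more, the lowest for TMEM242 in late stage intermediates (0.36 ± 0.12).

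Among 19 genes of the TCA cycle and pyruvate oxidation, the medians were -0.05 and 0.13. IDH3B, a subunit of the NAD-dependent isocitrate dehydrogenase, rose in both stages (0.94 ± 0.15, FDR 0.00305, and 1.19 ± 0.16, FDR 0.00289), and its partner IDH3G rose in the late stage (0.61 ± 0.09, FDR 0.00406). IDH2, the NADP-dependent enzyme, fell in early stage intermediates from 169 and 138 CPM in control lines to 65.2, 38.6 and 47.0 CPM (-1.61 ± 0.22, FDR 0.00154). SUCLG1, of succinyl-CoA synthetase, fell there too (-0.91 ± 0.11, FDR 0.00105). Of 17 tested genes for mitochondrial transcription, DNA replication and their regulators, 3 rose in early and 4 in late stage intermediates at an FDR of 0.005, and 5 and 6 at 0.05, with none lower at either. Of all genes, 7.92% and 3.42% were higher at an FDR of 0.005, and 22.6% and 16.2% at 0.05. TWNK, the helicase of mitochondrial DNA, went from 17.3 and 18.6 CPM in control to 42.3, 42.0 and 47.1 CPM in early stage and 43.8 and 36.6 CPM in late stage lines (1.28 ± 0.12, FDR 0.000488, and 1.16 ± 0.13, FDR 0.00144). TFB2M, a mitochondrial transcription factor, had 1.01 ± 0.10 (FDR 0.00062) and 0.92 ± 0.11 (FDR 0.00183). PPRC1, a coactivator of nuclear genes for mitochondrial proteins, had 0.98 ± 0.11 (FDR 0.000695) and 0.83 ± 0.11 (FDR 0.00282). PPARGC1B, a related coactivator, rose in the late stage alone (0.01 ± 0.11, FDR 0.948, and 0.75 ± 0.12, FDR 0.00484). NRF1 itself had 0.47 ± 0.13 (FDR 0.0199) and 0.29 ± 0.14 (FDR 0.147).

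The 13 subunits encoded in mitochondrial DNA could not be compared, because together they had 33 to 73 counts a library, or 1.18 to 3.14 CPM. The balance of nuclear and mitochondrial subunits was therefore not measured.

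The label of K562 was checked against markers. All 15 erythroid markers were above the limit, among them the globins HBG1 and HBG2. Their summed level was 4528 and 3957 CPM in the controls, 12780, 14182 and 11166 CPM at 10, 15 and 25 nM, and 7294 and 5190 CPM at 50 and 200 nM. In early stage intermediates 12 of the 15 were higher at an FDR of 0.05, against 2 in late stage intermediates, where 22.6% and 16.2% of all genes were. The most abundant erythroid gene in the controls was HBG2 with 1244 and 905 CPM. Of 14 markers of other blood cells, 4 passed the limit, and MS4A1, MPO, ELANE, PF4, GP9 and CD79A were at or under 0.288 CPM in every line. The sum of the 14 was 301 and 288 CPM in control, 150, 53.3 and 183 CPM in early stage and 471 and 501 CPM in late stage lines. PTPRC, the leukocyte antigen CD45, was the most abundant of them in 5 lines, with 180 and 193 CPM in control, 103 CPM at 25 nM and 305 and 329 CPM in late stage lines. In the 10 and 15 nM lines PTPRC had 11.2 and 0.891 CPM, and LYZ, the lysozyme of myeloid cells, was the most abundant with 102 and 24.4 CPM. These markers moved with the stages, and their part in the changes of the members was not tested.

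By an annotation of GRCh37 the 86 members lay on 22 chromosomes, with 11 on chromosome 19. NDUFAF5 lies at chr20:13765653-13802226, UQCR11 at chr19:1597168-1605472 and COX7A2L at chr2:42560686-42652228, each counted over its exons. Exons of 31 members, among them ATP5E (TUBB1) and NDUFAF6 (TP53INP1), overlapped those of a gene on the other strand by at least 50 bases. For 26 members, among them UQCR11, NDUFB2 and NDUFAF6, exons overlapped those of a gene on the same strand. There were numbered pseudogenes for 51 members, with 6 for NDUFS5, 4 for NDUFAF4 and 2 for ATP5E. Reads shared with such copies may have been split or dropped in the counting, and those genes are less certain.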

How the data were processed

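RNA-seq of 7 K562 lines was analysed, with 1 library per line. The authors aligned reads to hg19 (GRCh37) with STAR, per the study's methods, and counted them per gene with featureCounts, per the submitters' processing notes. They deposited the raw counts of 25702 gene IDs as whole numbers without normalization. The versions of STAR and featureCounts and the use of strand in the counting are not given in the sources used here. The deposited comparison tables also hold log2 fold changes, p-values and FDR values of the authors, none of which were used. Gene symbols, chromosomes and lengths in bases, another deposited unit, were read from them and joined to the counts by gene ID. Total counts ranged from 20059656 to 27844799 per library.

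Counts were fitted in edgeR 4.0.16 (R 4.3.3) with TMM scaling, all 7 libraries, group means for control, early and late stage, and genes of at least 10 CPM in at least 2 libraries (10452). The quasi-likelihood test with Benjamini-Hochberg adjustment over all genes gave each p-value and FDR, at 0.005 as in the study and at 0.05. The biological coefficient of variation was 0.161. No library was a copy of another, since chi-square values between lines within a group were 21.1 to 70.1 per degree of freedom. Medians over genes were not tested. Alternatives were other scalings, filters, DESeq2 1.42.0, limma-voom (limma 3.58.1), fits of 2 groups, removal of a length trend, structural subunits alone and leaving out each library. The comparison of all DasR lines without the 200 nM line was added after seeing the data. The code was tested on simulated data.

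The members and lists were chosen with earlier results of these data known. Genes named were members past an FDR of 0.005, up to 5 with the largest change in each direction past 0.05, the most abundant per complex, and the SDH, core complex I, NDUFAF, c ring and isoform genes. For 1 of the members no result of its own is reported here, and it is left out of the plots that name genes. Others, such as ATP5H, NDUFB9, UQCRC1, COX5A and list genes, were chosen after their values were seen. Positions came from a GENCODE annotation lifted to GRCh37, and promoters from RefSeq.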

Additional observations from a re-analysis of the deposited data

Results flagged for a closer look

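The stages were compared for each member by the test of late against early stage intermediates and by whether they lay on opposite sides of both controls. By edgeR's quasi-likelihood test at an FDR of 0.05, NDUFAF6 differed by 0.52 on the log2 scale, NDUFA10 by 0.51, SDHB by 0.49, NDUFA4 by 0.43, NDUFS5 by 0.36 and UQCRH by 0.33, all higher in the late stage. ATP5E differed by -0.57 and was lower in the late stage. These were 7 of 86 members, where 12.7% of all genes passed. In 4 more the lines of one stage were all above and those of the other all below both controls, while the test of late against early did not pass an FDR of 0.05. These were NDUFA1 (0.42, FDR 0.0578), COX4I1 (0.33, FDR 0.0512) and ATP5B (0.21, FDR 0.127), higher in the late stage, and ATP5S (-0.64, FDR 0.0708), higher in the early stage. NDUFA10 met both conditions. ATP5S passed the limit on low counts through the early stage lines alone, and its value without that filter was -0.60 (FDR 0.0893). The stages lay on opposite sides of both controls in 5 of 86 members and in 4.01% of all genes. The 200 nM line was the highest of the 7 for NDUFAF6, NDUFA10, SDHB, NDUFS5, UQCRH, NDUFA1, COX4I1 and ATP5B. Without it 1 late stage library was left, and the median of late against early over all members was 0.06 instead of 0.17. The part of that line in these differences was not tested further.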

How the results depend on the processing

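No log2 fold change of a member called changed sign under any alternative, and of 368 values of named members 290 kept their side of the threshold, 66 lost it and 12 gained it. Of 307 medians 303 kept their sign, and the scalings kept the median of all genes within 0.02 on the log2 scale of 0. The number of members called depended more on the test. In early stage intermediates 7 were called in edgeR, 14 in DESeq2, 28 at an FDR of 0.05 and 4 among structural subunits alone, and 0 to 7 when 1 library was left out. Over all genes edgeR called 1881, DESeq2 3548 and edgeR at an FDR of 0.05 4865. In late stage intermediates 5 were called in edgeR, 21 in DESeq2, 27 at an FDR of 0.05 and 3 among structural subunits. Over all genes edgeR called 834, DESeq2 2503 and edgeR at 0.05 3542. With no filter on low counts 8 members were called, where 1287 of 22776 genes were (5.65%). With only the 2 groups in the fit 0 members were called, where 257 of 10452 genes were (2.46%). There the smaller number of libraries leaves little to estimate the spread. Leaving out 1 early stage library gave 1 to 4 members, where 2.62% to 5.7% of all genes were called. For late against early stage intermediates 0 were called in edgeR, 5 in DESeq2 and 7 at an FDR of 0.05, where 1135 and 1328 of all genes were called, and 0 when any 1 library was left out.

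The late stage median of complex II was 0.20 with no filter on low counts, and that of complex III 0.31 with the length trend removed. The causes were not tested. The early stage median was 0.06 to 0.24 in complex I, 0.08 to 0.19 in complex III and 0.09 to 0.24 in complex V when 1 library was left out. Without 1 late stage library, the late stage median went from 0.14 without the 200 nM line to 0.35 without the 50 nM line over all members, 0.12 to 0.24 in complex II, 0.14 to 0.34 in complex IV and 0.07 to 0.29 in complex V. The median of late against early went from 0.06 to 0.23 over all members, 0.06 to 0.31 in complex I, 0.10 to 0.31 in complexes II and III, 0 to 0.20 in complex IV and -0.01 to 0.21 in complex V. No paired analysis was possible because each line was sequenced as 1 library and the labels give no replicate numbers. With 2 controls and 1 library per line, differences between doses within a stage cannot be told apart from the spread between libraries. NDUFAF5 and ATP5S had 143 to 483 counts a library.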
